A study of Rattus rattus with 8 samples.

Results

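The mitochondrial chromosome of the rat contributed 37 of the 30957 genes in the deposited table, namely every gene whose listed position lay on chromosome MT. These were 13 mRNA genes, 2 rRNA genes and 22 tRNA genes. RNA came from neonatal rat cardiomyocytes of strain SD, taken 1 to 3 days after birth, and no genetic change was named for either group. All cultures were kept for 24 h with 0.2 mM AraC, which kills dividing cells, and with an insulin, transferrin and selenium supplement after the removal of adherent cells. They were then starved of serum and held at 1% oxygen for 48 h. Cells stained with the DNA dye Hoechst 33342 at 2 µg/mL were sorted by DNA content into a diploid (2n) and a tetraploid (4n) group of 4 libraries each, from independent experiments. Both groups were hypoxic, so the comparison concerns DNA content within hypoxic cultures and holds no normoxic control. A gate on DNA content does not by itself separate a cell with several nuclei from a cell about to divide or from cells of another type.

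The mitochondrial chromosome is a small circle carried in many copies per cell, and heart muscle is among the tissues richest in it. Its genes encode subunits of the respiratory chain and of ATP synthase together with the rRNAs and tRNAs needed to translate them. Each strand is transcribed as a long precursor. The tRNAs lie between most of the other genes and are cut out, which frees the mRNAs and rRNAs. Most genes are read from 1 strand, by convention the heavy-strand genes, and Mt-nd6 with some tRNAs is read from the opposite, light-strand promoter.

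The table named the 13 mRNA genes by symbol but listed the rRNA and tRNA genes by clone names only. Their class was taken from their length and position on build Rnor_6.0, and their amino acid and strand from the textbook gene order of mammals, so these identities are background and not values of the table. By that order 28 genes belonged to the heavy strand and 9 to the light strand, the latter being Mt-nd6 and 8 tRNA genes. The tRNA genes were 60 to 75 bases long. Of 36 neighbouring pairs 7 overlapped, the longest by 43 bases (Mt-atp8 and Mt-atp6) and by 23 bases (Mt-nd5 and Mt-nd6, on opposite strands). Whether reads were counted by strand is not given in the sources used here, so reads of a gene and of RNA from the opposite strand cannot be told apart. Mammalian nuclear genomes also hold copies of mitochondrial sequence, and how reads with several matches were counted is likewise not given.

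Library totals ran from 14783521 to 21033772 counts, and 12983 genes passed the filter on low counts. The labelled cell type was checked against 12 cardiomyocyte markers, which took 0.0558% to 0.111% of nuclear counts in the 2n libraries and 0.477% to 3.37% in the 4n libraries. In the same libraries 10 fibroblast markers took 4.97% to 6.40% in 2n and 3.31% to 5.96% in 4n, so fibroblast markers exceeded cardiomyocyte markers in every library but replicate 3 of 4n.

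Mitochondrial genes took a larger part of the counts in 4n than in 2n at all 4 replicate numbers, by a small margin in replicate 1 and a wide one in the other 3. In 2n replicates 1 to 4 the 37 genes held 2.87%, 3.06%, 3.37% and 3.82% of all counts. In 4n replicates 1 to 4 they held 3.71%, 25.0%, 25.9% and 24.1%. Replicate 1 of 4n was above its own 2n partner but inside the range of the 2n group, and the other 3 libraries of 4n lay far above it. The group means were 3.28% ± 0.416 (SD, n = 4) and 19.7% ± 10.7 (SD, n = 4), the second being a mean over libraries that stand apart. Wilson 95% intervals of these shares were at most 0.0215 percentage points to either side and cover counting error only. Set against nuclear counts, replicates 1 to 4 held 29.6, 31.5, 34.8 and 39.7 mitochondrial counts per 1000 nuclear counts in 2n. The matching values in 4n were 38.6, 333, 349 and 318. In bulk RNA, a change in the number of cells of a type and a change in RNA per cell cannot be told apart.

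The summed cardiomyocyte markers moved along with this share, but not in the same proportion. They took 0.111%, 0.0558%, 0.0826% and 0.105% of nuclear counts in 2n and 0.477%, 0.903%, 3.37% and 1.28% in 4n. Replicate 1 of 4n was thus above every 2n library in cardiomyocyte markers while its mitochondrial share was within the 2n range. Replicates 2 and 3 of 4n had nearly the same mitochondrial share, 25.0% and 25.9%, while their cardiomyocyte markers stood at 0.903% and 3.37%. All 12 cardiomyocyte markers were called higher in 4n by edgeR's quasi-likelihood test with Benjamini-Hochberg adjustment, against 2.67% of all genes tested, and their part in the mitochondrial difference was not tested.

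**Figure D1:**
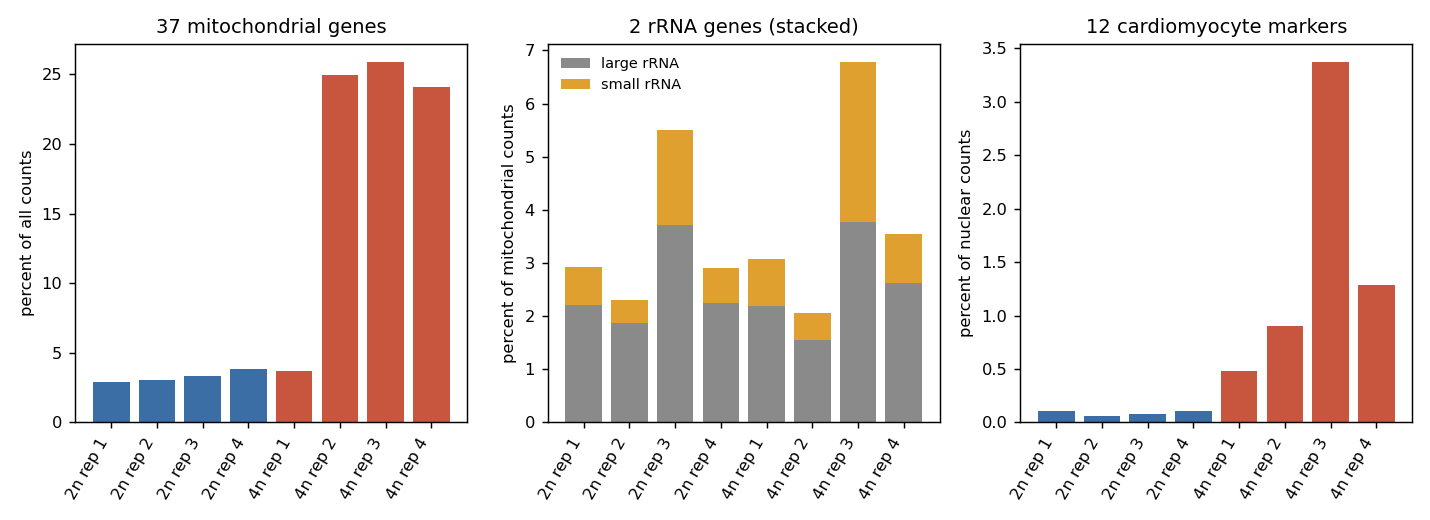
Percent of all counts in the 37 mitochondrial genes (left), percent of mitochondrial counts in the large and small rRNA genes stacked (middle) and percent of nuclear counts in 12 cardiomyocyte markers (right), 1 bar for each library. The mitochondrial bar of 4n replicate 1 (3.71%) is level with the 2n bars and those of 4n replicates 2 to 4 reach 24.1% to 25.9%.

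Across all genes, the first question was which mitochondrial transcripts differed between 4n and 2n. In the edgeR quasi-likelihood test with Benjamini-Hochberg adjustment, 15 of the 22 mitochondrial genes that passed the filter were called higher in 4n at an adjusted p under 0.05, and 0 lower. Over all 12983 genes tested, 2.67% were called higher and 0.0077% lower. The 15 comprised 11 of 13 mRNA genes, 0 of 2 rRNA genes and 4 of the 7 tRNA genes tested. All 22 had an unadjusted p under 0.05, beside 1630 of all 12983 genes that were higher in 4n at that level. DESeq2 called 21 of 22 higher against 6.62% of all genes. The median log2 fold change of the 13 mRNA genes was 2.91, from 2.34 to 3.35, beside a median of -0.01 over all genes tested. With replicate number as a block, 4 of 22 were called, all tRNA genes, and 0 of 13 mRNA genes, against 4.27% of all genes called higher and 0.608% called lower. The 4 were the genes at the valine, histidine, lysine and proline places. Of these the valine, histidine and proline genes reached the filter's cutoff in 1, 3 and 0 of the 4 libraries of 2n, so the filter favoured their being called. All 13 mRNA genes kept an unadjusted p under 0.05 with the block, beside 2198 of all 12983 genes that were higher in 4n at that level. Their adjusted p lay between 0.0595 and 0.0910.

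The calls also rested on single libraries. Without 4n replicate 1, 26 of 27 tested mitochondrial genes were called higher, against 6.64% of all genes, and all 13 mRNA genes were among them with adjusted p from 0.000116 to 0.00325. The median log2 fold change of these mRNA genes was then 3.27. The library left out was known to be low in mitochondrial genes, so its removal favoured their being called. These calls are not read as support. Of the 12 tRNA genes tested in that fit, 5 were added by it, and they reached the cutoff of the main filter in 0 of the 4 libraries of 2n. They entered the test through the 4n libraries, so their calls were fixed in part by the filter and are not read as support. Leaving out any 1 of the 4 libraries of 2n, or 4n replicate 4, left 0 mitochondrial genes called in edgeR, and 0 of all genes tested. Leaving out 4n replicate 2 left 2 mitochondrial genes called, against 2.34% of all genes, and leaving out 4n replicate 3 also left 2, against 2.11%. In each of these 7 fits, all 13 mRNA genes stayed higher in 4n at an unadjusted p under 0.05. Over all genes tested, 1228 to 1710 were higher in 4n at that level in these fits.

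Read pair by pair, replicate 1 stood apart from the others for every class. The median log2 difference of the 13 mRNA genes, 4n minus 2n at the same replicate number, was 0.37, 3.41, 3.27 and 2.87 for replicates 1 to 4. That of the 2 rRNA genes was 0.50, 3.33, 3.70 and 3.28. Over all genes tested it was close to 0 in each pair, from -0.02 to -0.0002. Of the 22 genes that passed the filter, 21 were higher in 4n in all 4 pairs, against 20.2% of all genes tested. The exception was the tRNA gene at the arginine place. The 2 groups did not overlap for 6 of the 22, all with 4n above, against 7.68% of all genes. The gene at the proline place is among the 6. Like the valine and histidine genes among the 22, it fell short of the filter's cutoff in part or all of 2n. The filter favoured their being higher in 4n, so they add no support to these counts. Replicate 1 of 4n fell inside the 2n range for 15 of the 22, and 4n replicates 2 to 4 were above every 2n library for 22 of 22. Neither of these counts was set beside a share over all genes, and the second leaves aside the library known to be low.

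**Figure D2:**
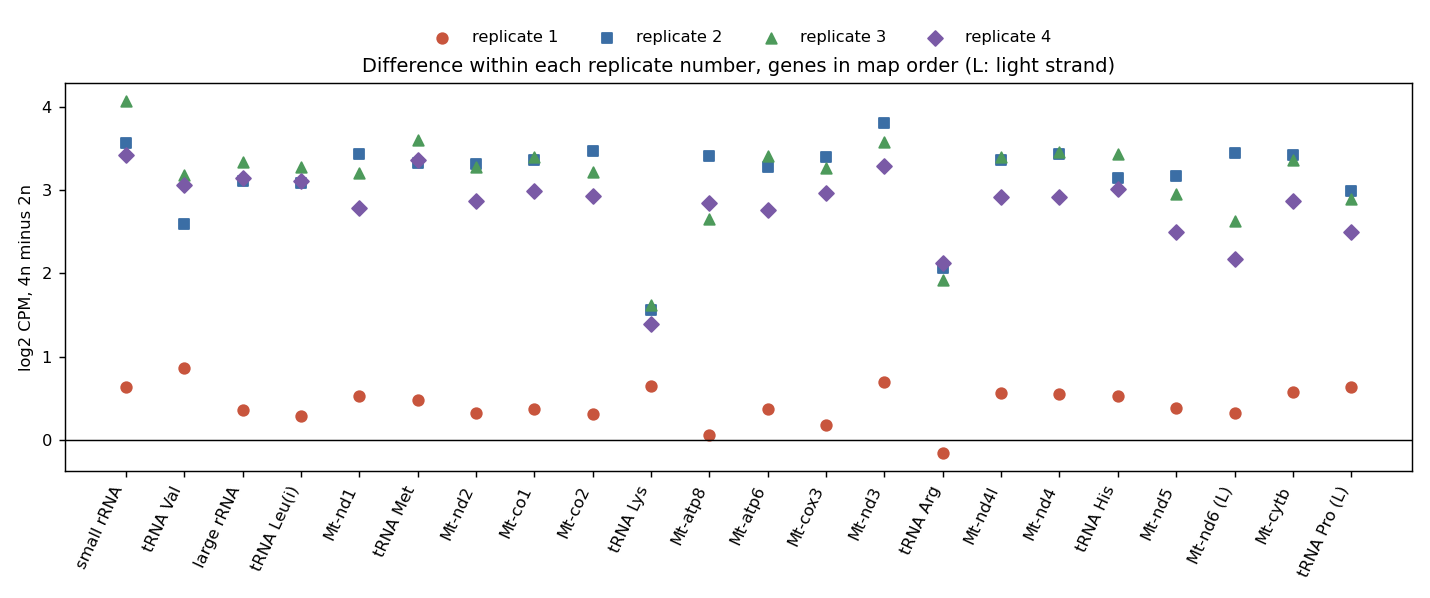
Difference in log2 CPM between 4n and 2n within each replicate number for the 22 mitochondrial genes that passed the filter, in map order. The points of replicate 1 lie from -0.16 to 0.86 and those of replicates 2 to 4 from 1.39 to 4.07.

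Complex IV, the cytochrome c oxidase that passes electrons to oxygen, has 3 mitochondrially encoded subunits. All 3 of their mRNAs were called higher in the fit of all libraries on group alone, and none with the replicate block. The shares of all genes tested called higher in these fits were 2.67% and 4.27%. Mt-co1, the catalytic subunit (positions 5323 to 6867), stood at 9950, 10727, 10738 and 13144 CPM in 2n replicates 1 to 4. It stood at 12870, 109817, 113032 and 104660 CPM in 4n. Replicate 1 of 4n was within the 2n range and the other 3 were far above it. The log2 fold change was 2.93 ± 0.58 (SE), with an adjusted p of 0.0346 in edgeR's quasi-likelihood test and 0.0633 with the replicate block. Mt-co2, which holds the copper centre that receives electrons from cytochrome c, ran from 2204 to 3073 CPM in 2n and was at 2748, 25972, 26199 and 23455 CPM in 4n. It rose by 2.91 ± 0.59 on the log2 scale (SE, edgeR adjusted p = 0.0371). Mt-cox3, a core subunit of the enzyme, ran from 3895 to 4983 CPM in 2n and was at 4610, 40920, 39851 and 38956 CPM in 4n. It changed by 2.86 ± 0.57 on the log2 scale (SE, edgeR adjusted p = 0.0357).

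The single subunit of complex III encoded here is Mt-cytb, the cytochrome b that carries electrons across the inner membrane. Its mRNA (positions 14136 to 15278) stood at 2216, 3082, 2507 and 3449 CPM in 2n and at 3300, 32864, 25764 and 25105 CPM in 4n. The groups overlapped through 4n replicate 1 only. The log2 fold change was 2.95 ± 0.58 (SE), with an edgeR adjusted p of 0.0346 and 0.0595 with the replicate block.

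Complex I, the NADH dehydrogenase at the entry of the chain, has 7 subunits encoded on this chromosome. In the fit of all libraries on group alone 6 of their mRNAs were called higher, and none with the replicate block. Over all genes tested, 2.67% and 4.27% were called higher in these fits, in that order. Mt-nd3 (positions 9451 to 9798) had the largest fold change of the 13 mRNA genes. It stood at 102, 173, 177 and 205 CPM in 2n and at 167, 2421, 2118 and 1992 CPM in 4n, which corresponded to 3.35 ± 0.68 on the log2 scale (SE, edgeR adjusted p = 0.0373). Mt-nd6, the light-strand mRNA (positions 13543 to 14061), had the smallest. It stood at 11.3, 6.46, 11.7 and 17.6 CPM in 2n and at 14.2, 71.5, 72.8 and 79.6 CPM in 4n, which corresponded to 2.34 ± 0.51 on the log2 scale (SE, edgeR adjusted p = 0.0473). Mt-nd5, its heavy-strand neighbour and a proton-pumping subunit, stood at 1585, 1402, 1614 and 2038 CPM in 2n and at 2068, 12545, 12462 and 11450 CPM in 4n. For this gene 4n replicate 1 was just above the highest 2n library, so that the groups did not overlap, and it rose by 2.54 ± 0.49 on the log2 scale (SE, edgeR adjusted p = 0.0332).

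The other complex I mRNAs lay between these. Mt-nd4 and Mt-nd4l, 2 membrane subunits whose genes overlap by 7 bases, changed by 2.99 ± 0.58 and 2.96 ± 0.58 on the log2 scale (SE, edgeR adjusted p = 0.0336 and 0.0337). Mt-nd2 changed by 2.88 ± 0.62 (SE, edgeR adjusted p = 0.0447). Mt-nd1, a subunit near the quinone site, did not pass the test. It stood at 1019, 1268, 2281 and 1844 CPM in 2n and at 1471, 13657, 20963 and 12658 CPM in 4n. The fitted difference was 2.93 ± 0.66 on the log2 scale (SE, edgeR adjusted p = 0.0554), of the same size as for Mt-co1 and with a larger SE.

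ATP synthase has 2 subunits encoded here, whose reading frames overlap. The mRNA of Mt-atp6, the proton channel subunit (positions 7919 to 8599), stood at 461, 352, 506 and 479 CPM in 2n and at 597, 3418, 5394 and 3234 CPM in 4n. Its groups did not overlap, and it rose by 2.81 ± 0.54 on the log2 scale (SE, edgeR adjusted p = 0.0322). Mt-atp8, a small accessory subunit (positions 7758 to 7961), stood at 669, 722, 958 and 974 CPM in 2n and at 701, 7653, 6007 and 7006 CPM in 4n. It did not pass, with a log2 fold change of 2.68 ± 0.60 (SE) and an edgeR adjusted p of 0.0517. The shared bases mean that reads of this pair can be split between them in counting.

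The rRNAs of the mitochondrial ribosome are transcribed with the tRNA at the valine place between them, and their values varied from culture to culture. The small rRNA gene (listed as AY172581.9, positions 68 to 1025) stood at 189, 121, 560 and 233 CPM in 2n. In 4n it stood at 294, 1422, 9400 and 2502 CPM. The large rRNA gene (AY172581.24, positions 1094 to 2664) stood at 570, 523, 1172 and 801 CPM in 2n and at 731, 4500, 11824 and 7063 CPM in 4n. In both groups replicate 3 was the highest library for both genes, and 4n replicate 1 lay within the 2n range. The log2 fold changes were 3.63 ± 0.96 for the small and 2.98 ± 0.70 for the large rRNA gene (SE). Neither passed edgeR's quasi-likelihood test, with adjusted p of 0.0916 and 0.0608. Without 4n replicate 1 both passed, at adjusted p of 0.0159 and 0.00402, in edgeR. As that library was known to be low in mitochondrial genes, its removal favoured these passes, which add no support.

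As parts of the mitochondrial counts, the 3 classes kept nearly the same proportions in both groups. The rRNA genes took 2.93%, 2.31%, 5.50% and 2.91% of mitochondrial counts in 2n and 3.07%, 2.05%, 6.78% and 3.54% in 4n. The mRNA genes took 94.4% to 97.6% in 2n and 93.1% to 97.9% in 4n. The tRNA genes took 0.113%, 0.0725%, 0.0768% and 0.0674% in 2n and 0.112%, 0.0581%, 0.0736% and 0.0732% in 4n. For all 3 classes the ranges of the groups overlapped. Wilson 95% intervals were at most 0.058 percentage points to either side for the rRNA share and 0.0101 for the tRNA share. The libraries were made after isolation of mRNA from fragmented RNA, and rRNAs and tRNAs with short or no poly(A) tails are poorly kept by such steps. These shares describe the libraries and not the amounts of each class in the cell.

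Genes of tRNAs were thinly counted, and the 22 together held 478, 466, 456 and 506 counts in 2n and 697, 2253, 3220 and 2706 in 4n. Of the 22, 7 passed the filter and 15 did not, the latter with 0 to 57 counts in any library. A count of 0 allows up to 3 counts, or 0.143 to 0.203 CPM before TMM scaling. Among the 7 that passed, the genes at the proline, valine and histidine places reached the filter's cutoff in 0, 1 and 3 of the 4 libraries of 2n. The proline gene passed through the 4n libraries alone, and the valine and histidine genes with some 2n libraries as well. Their being higher in 4n was fixed in part by the filter, least so for the histidine gene.

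Most tRNA counts fell on 2 genes. The gene at the first leucine place (AY172581.14, positions 2665 to 2739, between the large rRNA gene and Mt-nd1) had 224, 173, 168 and 199 counts in 2n and 310, 868, 1220 and 1121 in 4n. The gene at the methionine place (AY172581.15, positions 3835 to 3903, next to Mt-nd2) had 180, 160, 153 and 156 counts in 2n and 285, 945, 1396 and 1052 in 4n. For both, every 4n library was above every 2n library, replicate 1 by the smallest margin. Both rose, by 2.67 ± 0.46 and 2.97 ± 0.49 on the log2 scale (SE, edgeR adjusted p = 0.0258 and 0.0252), and with the replicate block the adjusted p was 0.0738 and 0.0668. Together these 2 genes held 84.5%, 71.5%, 70.4% and 70.2% of tRNA counts in 2n and 85.4%, 80.5%, 81.2% and 80.3% in 4n.

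The lysine and arginine places had the smallest fold changes of the genes tested. The gene at the lysine place (AY172581.1, positions 7693 to 7756, between Mt-co2 and Mt-atp8) had 10, 35, 34 and 41 counts in 2n and 19, 63, 81 and 72 in 4n. The fitted difference was 1.49 ± 0.54 on the log2 scale (SE, edgeR adjusted p = 0.201), and with the replicate block the adjusted p was 0.0321. The gene at the arginine place (AY172581.16, positions 9800 to 9867, between Mt-nd3 and Mt-nd4l) had 15, 30, 17 and 26 counts in 2n and 15, 78, 52 and 79 in 4n. The fitted difference was 1.87 ± 0.54 on the log2 scale (SE, edgeR adjusted p = 0.115), and 0.0572 with the block. Neither passed in the fit of all libraries, while the histidine and proline places did, at 3.11 ± 0.64 and 2.84 ± 0.56 (SE, edgeR adjusted p = 0.0397 and 0.0346). The valine place had 3.07 ± 0.73 (SE, edgeR adjusted p = 0.0643).

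**Figure D3:**
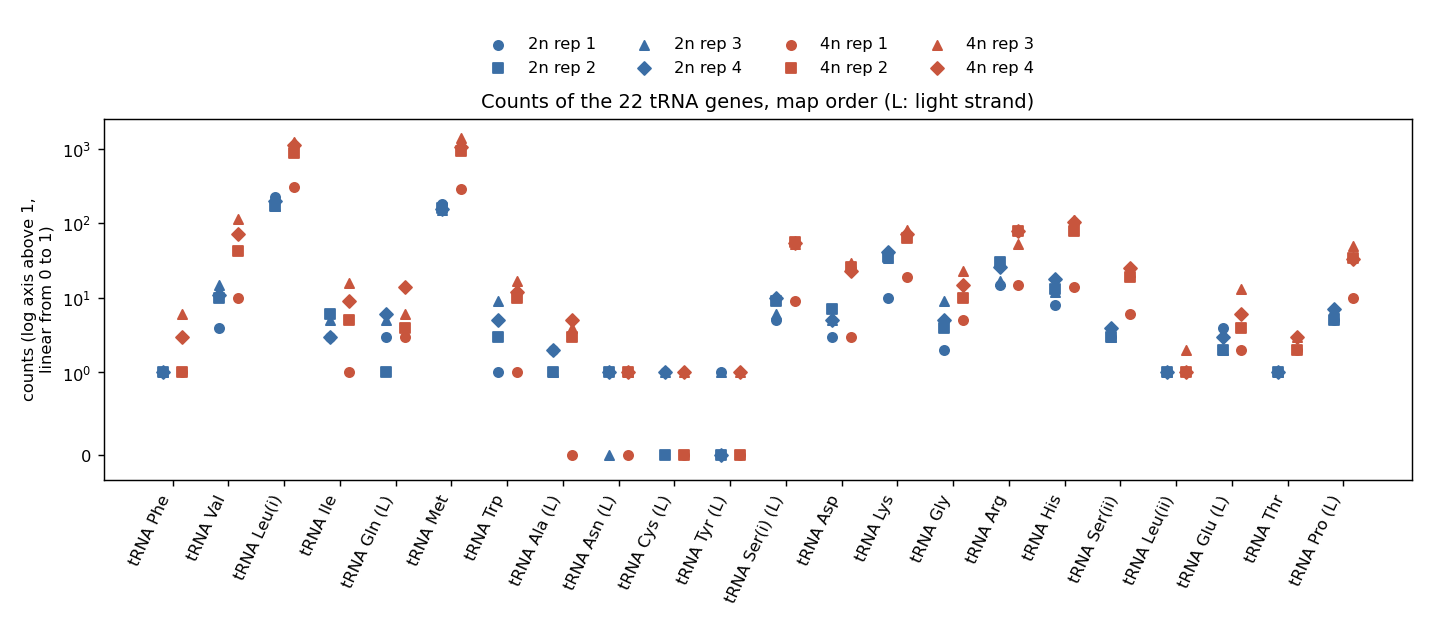
Counts of the 22 tRNA genes in the 8 libraries, in map order, on an axis that is logarithmic above 1 and linear from 0 to 1. The leucine and methionine genes stand at 153 to 1396 counts, and no other tRNA gene exceeds 114.

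Heavy- and light-strand genes were compared next. Light-strand genes held 0.0490%, 0.0261%, 0.0409% and 0.0534% of mitochondrial counts in 2n and 0.0464%, 0.0274%, 0.0262% and 0.0326% in 4n, so the groups overlapped. In replicates 3 and 4 the 4n share was below its 2n partner, and in replicates 1 and 2 the 2 shares were nearly level. The 8 light-strand tRNA genes together held 22, 19, 23 and 30 counts in 2n and 24, 103, 127 and 115 in 4n. Only 2 of the 9 light-strand genes passed the filter, Mt-nd6 and the gene at the proline place. Both were called higher in the fit of all libraries, against 2.67% of all genes tested. The proline gene passed the filter through the 4n libraries alone. The median log2 fold change of the pair was 2.59, beside 2.93 for the 20 heavy-strand genes that passed. Without a filter it was 1.37 for all 9 light-strand genes and 2.85 for all 28 heavy-strand genes. For the tRNA genes alone it was then 1.30 on the light and 1.83 on the heavy strand. The genes added without a filter were all tRNA genes with 0 to 57 counts in any library. By pair, the median of the light-strand genes was 0.48, 3.22, 2.76 and 2.34, and that of the heavy-strand genes 0.43, 3.34, 3.31 and 2.93. With 2 genes on 1 side, and without knowing whether the counts separate the strands, no test of a strand difference was made.

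Levels of different genes were compared per length, on the deposited FPKM values. Mt-co1 was highest of the 13 mRNA genes in all 8 libraries, Mt-cox3 second and Mt-nd6 lowest. Mt-co1 averaged 7832 ± 896 FPKM in 2n and 47949 ± 25790 FPKM in 4n (SD, n = 4). Mt-nd6 averaged 24.6 ± 9.29 FPKM in 2n and 100.6 ± 47.7 FPKM in 4n (SD, n = 4). The ratio of the FPKM of Mt-co1 to that of Mt-nd6 ran from 252 to 557 in 2n and from 305 to 522 in 4n, so the ranges overlapped. Mt-atp8 and Mt-co2 exchanged places 3 and 4 between libraries, and Mt-nd2, Mt-cytb, Mt-nd1 and Mt-nd4l took places 5 to 8 in all 8. Mt-nd3 was at place 12 in the 4 libraries of 2n and in 4n replicate 1, and at places 9, 11 and 10 in 4n replicates 2 to 4. The FPKM of the 2 rRNA genes stayed below that of Mt-co1 in every library, the large rRNA gene at 0.0403 to 0.107 times its level.

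**Figure D4:**
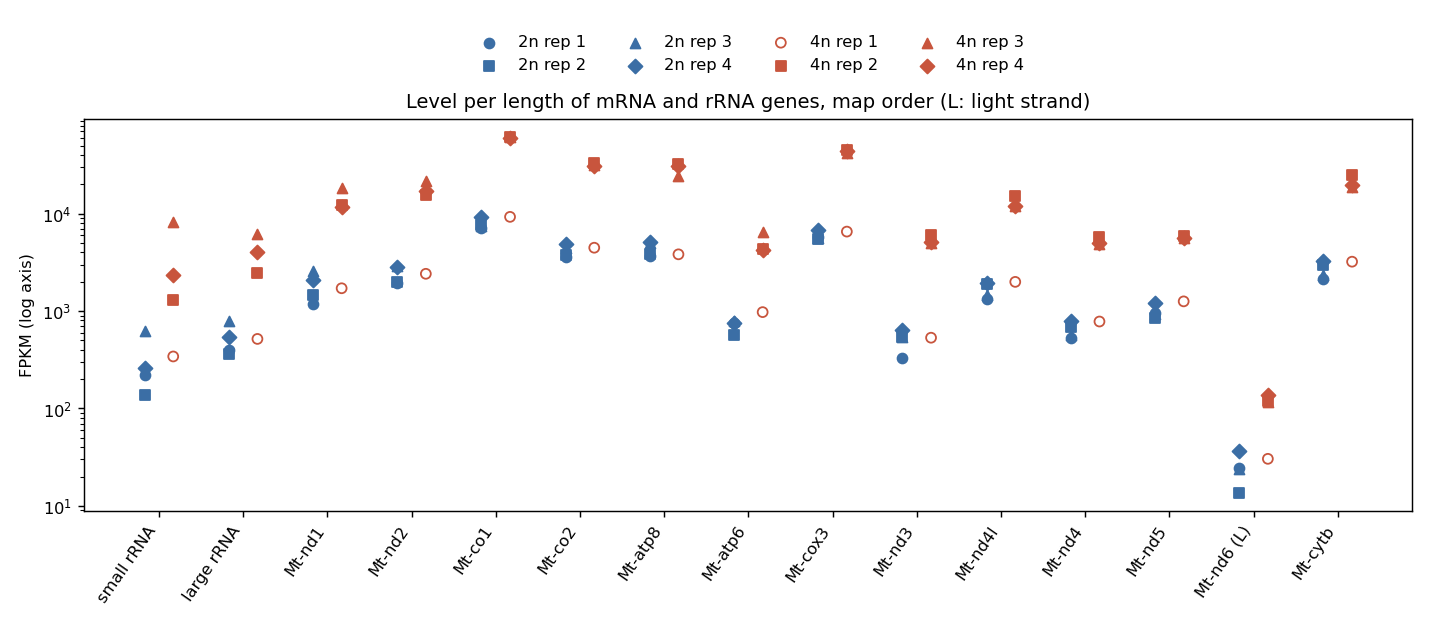
FPKM on a logarithmic axis of the 13 mRNA and 2 rRNA genes in map order, with 2n libraries in blue and 4n libraries in red and 1 marker shape for each replicate number. Mt-co1 is the highest and Mt-nd6 the lowest mRNA in every library, and 4n replicate 1 lies among or close to the 2n points.

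The order of levels followed the map only loosely. Over the 12 heavy-strand mRNA genes, Spearman's rho between start position and FPKM ran from -0.31 to -0.55 in the 8 libraries, as a description across genes that share a precursor and are not independent. Genes that share a mature mRNA were compared in pairs. The FPKM of Mt-nd4l was 2.43 to 2.75 times that of Mt-nd4 in 2n and 2.43 to 2.62 times in 4n, a near-constant ratio. Mt-atp8 and Mt-atp6, likewise read from a single mRNA, had FPKM ratios of 4.85, 6.84, 6.32 and 6.79 in 2n and of 3.92, 7.48, 3.72 and 7.23 in 4n. That ratio was lowest in 4n replicates 1 and 3. Between the opposite strands, Mt-nd6 stood at 0.0163 to 0.0304 times the FPKM of Mt-nd5 in 2n and 0.0201 to 0.0245 times in 4n. The small rRNA gene stood at 0.544, 0.378, 0.784 and 0.477 times the large in 2n and 0.661, 0.518, 1.30 and 0.581 times in 4n, higher in 4n in each pair.

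Within the mitochondrial counts a few genes shifted in the same direction in all 4 pairs, replicate 1 included. The share of Mt-nd3 was higher in 4n by 0.34, 0.44, 0.27 and 0.36 on the log2 scale (mean 0.35 ± 0.07 SD, n = 4). The share of the small rRNA gene was higher by 0.27, 0.19, 0.76 and 0.50. That of the gene at the histidine place was higher by 0.26, 0.009, 0.34 and 0.25, on 8 to 112 counts. The share of the gene at the arginine place, which lies next to Mt-nd3, differed by -0.55, -1.22, -1.27 and -0.70, on 15 to 79 counts. For that gene every 4n library was below every 2n library in share. Mt-nd2 differed by -0.04 to -0.06 in each pair. These shifts are descriptions chosen from 22 genes, with no test.

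Other genes did not shift alike in the 4 pairs. Mt-nd5 took 6.12%, 5.03%, 5.13% and 5.73% of mitochondrial counts in 2n and 6.20%, 4.35%, 3.98% and 4.24% in 4n. The gene at the lysine place differed in share by 0.38, -1.75, -1.63 and -1.49 on the log2 scale. Mt-nd6 differed by -0.04, 0.10, -0.67 and -0.75, with its largest drops in replicates 3 and 4. Mt-co1, the most counted gene, differed by -0.02 to 0.08 in the 4 pairs, and its mean share was 36.99% in 2n and 37.88% in 4n.

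**Figure D5:**
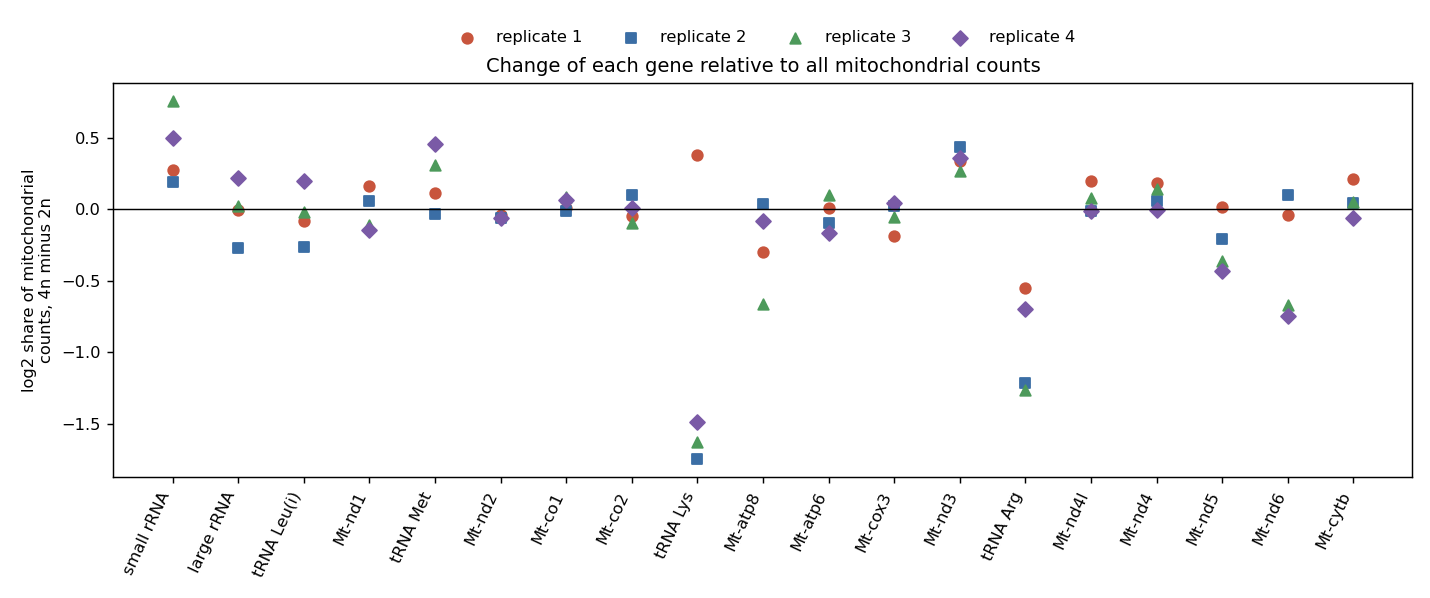
Log2 difference between 4n and 2n, within each replicate number, in the share of mitochondrial counts taken by each gene that reached the filter's cutoff in all 8 libraries. Mt-nd3 and the small rRNA lie above 0 and Mt-nd2 and the arginine tRNA below 0 in all 4 pairs, while the lysine tRNA is above 0 in replicate 1 and at -1.49 or lower in the others.

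The proportions among the mitochondrial transcripts followed the replicate number more closely than the group. Over the 13 mRNA and 2 rRNA genes, the root mean square log2 distance between the shares of 2 libraries with the same number was 0.160 to 0.341, with a median of 0.231 over 4 pairs. The median was 0.460 over the 12 pairs of libraries of the same group and 0.430 over the 12 pairs that differed in both. The nearest library was the one with the same number for 7 of 8 libraries, the exception being 2n replicate 4, which was nearest to 4n replicate 1.

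Nuclear genes that copy, transcribe, process and translate the mitochondrial chromosome were read from 7 lists of 89 symbols, of which 83 were found and 82 rows were tested. In the edgeR quasi-likelihood test 2 of 82 were called higher in 4n and 0 lower, beside 2.67% of all genes tested called higher. An unadjusted p under 0.05 was reached by 9 that were higher and 1 that was lower, beside 1630 and 626 of all 12983 genes. DESeq2 called 6 higher and 0 lower, beside 6.62% of all genes called higher, and the replicate block gave 4 beside 4.27%. In all 3 fits the share called was near that of all genes, so the counts show nothing particular to these lists. Their median log2 fold change was 0.10, beside -0.01 over all genes tested. The 2 called were Ppargc1a, a coactivator that drives mitochondrial biogenesis, and Esrrg, a nuclear receptor it works with. Ppargc1a stood at 0.672 ± 0.459 CPM in 2n and 9.66 ± 8.40 CPM in 4n (SD, n = 4), which corresponded to 3.83 ± 0.72 on the log2 scale (SE, edgeR adjusted p = 0.0306). Esrrg stood at 2.46 ± 1.23 CPM in 2n and 29.1 ± 25.8 CPM in 4n (SD, n = 4), which corresponded to 3.57 ± 0.68 on the log2 scale (SE, edgeR adjusted p = 0.0306). For both, every 4n library was above every 2n library. The 2n mean of Ppargc1a lay close to the filter's cutoff of 0.595 CPM before TMM scaling, with an SD that reached below it. The filter may thus have favoured its being higher in 4n. The others called with the replicate block were Dguok, which makes precursors for mitochondrial DNA, and Ppargc1b, a relative of Ppargc1a. Their edgeR adjusted p with the block was 0.0479 and 0.0343.

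None of the 10 genes on the transcription list passed the edgeR test in the fit of all libraries. As 2.67% of all genes tested were called higher there, this shows nothing particular to so short a list. The median log2 fold change of the 10 genes was 0.20 in that fit under TMM scaling. Scaling by total counts moved the median of all genes to -0.25 and turned Polrmt, Tfam and Tfb1m, an rRNA methyltransferase, below 0. The mitochondrial RNA polymerase Polrmt stood at 10.7 ± 1.63 CPM in 2n and 12.0 ± 2.11 CPM in 4n (SD, n = 4), and its log2 difference of 0.16 ± 0.18 (SE, edgeR adjusted p = 0.690) did not pass. Tfam, which packages the chromosome and starts transcription, stood at 31.0 ± 2.72 and 31.4 ± 5.20 CPM (SD, n = 4), with a log2 difference of 0.02 ± 0.14 (SE, edgeR adjusted p = 0.962) whose sign changed with the scaling. Mrpl12, a ribosomal protein that binds the polymerase, had a log2 difference of 1.00 ± 0.32 (SE, edgeR adjusted p = 0.158) and passed without 4n replicate 1 (edgeR adjusted p = 0.0409).

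The lists for the remaining steps held no called gene in the fit of all libraries, where 2.67% of all genes tested were called higher. With lists this short, counts of 0 are close to that share and show nothing particular to these steps. On the stability and decay list 0 of 9 passed the edgeR test. Lrpprc, which binds and stabilises mitochondrial mRNAs, stood at 83.1 ± 13.9 and 115 ± 45.3 CPM (SD, n = 4), a log2 difference of 0.47 ± 0.25 (SE, edgeR adjusted p = 0.372). Its partner Slirp had 0.52 ± 0.14 (SE, edgeR adjusted p = 0.103), with every 4n library above every 2n library. On the RNA processing list 0 of 12 passed, the tRNA methyltransferase and RNase P subunit Trmt10c at 0.34 ± 0.18 (SE, edgeR adjusted p = 0.369). On the tRNA synthetase list 0 of 19 passed, and 14 had a positive log2 difference. Aars2, the mitochondrial alanine enzyme, had 0.30 ± 0.15 and Gars had -0.36 ± 0.20 (SE, edgeR adjusted p = 0.337 and 0.399). On the translation factor list 0 of 10 passed, with the elongation factors Tufm and Gfm1 at 0.66 ± 0.22 and 0.88 ± 0.34 (SE, edgeR adjusted p = 0.173 and 0.235). On the replication list 0 of 12 passed, and 6 had a positive log2 difference. Dguok was at 0.67 ± 0.24 and the topoisomerase Top1mt at -0.42 ± 0.17 (SE, edgeR adjusted p = 0.193 and 0.252).

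Markers of other cells were read beside these results. Of 9 fibroblast markers tested, 0 had a positive log2 difference in the fit of all libraries, and their median was -0.53. By edgeR 0 were called in that fit, where 0.0077% of all genes were called lower. With the replicate block 2 were called lower, against 0.608% of all genes. Col1a2 was listed at 0 in all 8 libraries. The 7 endothelial markers took 0.0037% to 0.0071% of nuclear counts in 2n and 0.0090% to 0.0494% in 4n. Of these 0 were called in the fit of all libraries (2.67% of all genes higher) and 5 were called higher with the block (4.27% of all genes higher). In the fit of all libraries 6 of the 7 had a positive log2 difference, and the median was 2.83. Smooth muscle and pericyte markers took 0.668% to 1.10% in 2n and 0.619% to 1.18% in 4n. Immune markers took at most 0.0019%, with Cd163 at 0 in every library, and red cell markers took at most 0.0000685%. In 4n replicate 1 the fibroblast markers stood at 5.67% of nuclear counts, in 4n replicate 2 at 5.96%, and in 4n replicates 3 and 4 at 3.31% and 3.53%. The mitochondrial share of replicates 1 and 2 of 4n was 3.71% and 25.0% of all counts. Their cardiomyocyte markers also differed, at 0.477% and 0.903% of nuclear counts. The part of these markers in the mitochondrial values was not tested.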

How the data were processed

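RNA of 8 sorted cultures was sequenced, 4 of 2n and 4 of 4n cells, grouped and numbered by the sample titles. Reads were aligned with HISAT2 2.0.4 to Rnor 6.0, per the submitters' processing notes. The labels name the organism Rattus rattus, and this build is of Rattus norvegicus. How reads were counted, by which tool and with or without strand, is not given in the sources used here. Per the file headers, the deposited table holds a whole-number count and an FPKM value for each gene and library. The FPKM values deposited by the authors used the full gene length for all 37 mitochondrial genes.

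Counts were tested with edgeR 4.0.16 (R 4.3.3): filterByExpr, TMM scaling, a robust quasi-likelihood fit on group, and Benjamini-Hochberg adjustment over 12983 genes, two-sided, threshold 0.05. CPM values are TMM-scaled. The SE beside an edgeR log2 fold change was derived from the test. It is the absolute log2 fold change divided by the square root of the F statistic. The test was run on simulated counts that had the same dispersion for all genes, no pairing and no library that stood apart. That run therefore does not show how the test behaves with these features of the data. DESeq2 1.42.0 (39 adjusted p values were NA), limma-voom from limma 3.58.1, limma on log2(FPKM + 1) and on log2(FPKM + 0.1), other scalings, no filter and libraries left out were alternatives. Shares used the unscaled counts, with Wilson intervals from scipy 1.17.1. Deviations of same-numbered libraries from their group means correlated at 0.43, 0.58, 0.27 and 0.65, and every library correlated most with its partner. The descriptions of same-numbered libraries also open with a shared code, so replicate numbers were taken as pairs in the descriptions by pair and in the fits with a block. The main fit, called the fit of all libraries above, was on group alone. Its SE and adjusted p leave the pairing out, and only the values with the replicate block take it in. Replicates of a group differed beyond counting noise, with chi-square per degree of freedom of 36.4 or more.

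All chromosome MT genes could be named. For each nuclear list, up to 3 genes with the smallest p were, with Polrmt, Tfam, Lrpprc and Ppargc1a in any case. The members and lists were chosen with earlier results of these data known. No sequence file for these genes was used here.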

Additional observations from a re-analysis of the deposited data

Results flagged for a closer look

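In 4n replicate 1, 5 of the 22 mitochondrial genes tested lay so far below the other 3 libraries of 4n that the gap to the nearest of them filled most of the range of the group. Dixon's ratio of that gap to the range was 0.916 for Mt-co1, 0.883 for Mt-co2, 0.946 for Mt-cox3, 0.895 for Mt-nd5 and 0.877 for Mt-nd6, all in CPM. It was 0.920 for the percent of all counts in the 37 genes, at 3.71% in replicate 1 and 24.1% to 25.9% in the others. Over 62 group values tested these 6 exceeded the 95% critical value of the ratio for 4 samples, all in the same library, and chance alone passes it in about 1 of 20 groups. The values share a library and are not independent. That library was already known to stand apart, so these ratios describe it again and add no separate evidence.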

How the results depend on the processing

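Few counts limited the precision of the tRNA and light-strand values. With replicate number as a block, and with that block under scaling to nuclear counts, 4 mitochondrial genes were called higher in place of 15. The counts were 8 without a filter, 3 on log2(FPKM + 1), 3 on log2(FPKM + 0.1) and 0 with limma-voom, where 20 of 22 had an unadjusted p under 0.05. Leaving out single libraries gave 0 to 26, the highest without 4n replicate 1, and leaving out pairs 1 to 4 with the block gave 26, 0, 2 and 0. Over all genes, 347 were called higher. That became 554 with the block, 572 with the block and nuclear scaling, 860 with DESeq2, 186 on log2(FPKM + 1), 0 with limma-voom (1456 at an unadjusted p under 0.05), 0 to 870 without single libraries and, with the block, 1254, 0, 558 and 0 without pairs 1 to 4. The 1 gene called lower became 79 with the block, 106 with block and nuclear scaling, 2 with nuclear scaling, 12 with total-count scaling, 93 with DESeq2, 8 and 15 on the FPKM scales with pseudocounts of 1 and 0.1, 0 with limma-voom, 0 to 90 without single libraries and, with the block, 399, 0, 50 and 0 without pairs 1 to 4. The 2 nuclear genes called higher became 4 with the block under either scaling, 6 with DESeq2, 1 on log2(FPKM + 1), 0 with limma-voom, 0 to 3 without single libraries and, with the block, 7, 0, 4 and 0 without pairs 1 to 4, and 1 was called lower with the block without pair 1. The cause of these moves was not tested.

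The 22 mitochondrial genes tested kept their direction under every alternative run. Without a filter the median of light-strand genes fell from 2.59 to 1.37, with 9 genes in place of 2. That of heavy-strand genes went from 2.93 to 2.85, with 28 genes in place of 20. On FPKM in place of counts, the 37 genes held 7.82% (2n) and 34.3% (4n) of the sum, tRNA genes 1.09% and 1.07% of the mitochondrial sum and light-strand genes 0.124% and 0.0985%. Without the rRNA genes the mRNA share was 99.9% in both. Total-count scaling moved the median of all genes to -0.25, log2(FPKM + 1) to -0.20 and log2(FPKM + 0.1) to -0.26. In that order Tbrg4 turned to -0.073, -0.075 and -0.079, Tfb1m to -0.012, -0.022 and -0.026, Polrmt to -0.068, -0.063 and -0.086 and Tfam to -0.228, -0.222 and -0.232. Tfam was also at -0.0091 with nuclear scaling, -0.016 with that and the block, -0.0058 without a filter, -0.105 to 0.069 without single libraries, and -0.0042 and -0.079 with the block without pairs 1 and 3.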
